A study of Mus musculus with 6 samples.

Results

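The genes described here are 37 genes of the interferon response and of antigen processing, chosen by name, of 12393 genes that the array measures with a probe set of their own. Such a probe set is one that the platform annotation pairs with a single gene. Among the 37 genes, 34 had one, with 47 probe sets in all. The other 3, Isg15, Ifi44 and Xaf1, were not analysed here. The probe set of Isg15 is also paired with another gene. Of the 34 genes, 32 passed a filter on low signals and were tested among 9692 genes. Mx1 and Mx2 did not pass it. The 37 genes were chosen with earlier results of these data known.

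Affymetrix Mouse Genome 430A 2.0 arrays measured RNA of the whole liver. The donors were male wild-type mice of the C57Bl/6 strain that had received purified FGF15, recombinant FGF19 or vehicle into the jugular vein, and all livers were collected 6 h later, with no food given in between. Each group has 2 arrays, 6 in all, and the sources used here give neither the doses, the vehicle's composition, the age of the mice nor whether the arrays of a group stand for separate animals. The spread behind each p-value is therefore that between arrays and may be technical. FGF15 is the mouse hormone of the ileum that tells the liver to stop making bile acids, and FGF19 is its human counterpart, so the FGF19 mice received a protein of another species.

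Interferons are cytokines that put cells into an antiviral state. Type I interferon acts through a receptor that brings STAT2 and IRF9 into a complex, which binds the interferon-stimulated response element (ISRE) in promoters, while interferon gamma acts on promoters through the gamma-activated site (GAS). Many of the genes so induced restrict viruses, and others build the immunoproteasome and load its peptides on MHC class I, which displays them to T cells. In liver, hepatocytes respond to interferon as the resident macrophages (Kupffer cells) and endothelial cells do.

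Promoter stretches of several of these genes are shown first, since the ISRE and the GAS are the elements through which interferon reaches them. RefSeq promoter windows on GRCm38.p6, from 250 bases before to 50 after an annotated start, were found for 31 of the 37 genes. The ISRE core was searched as GAAANNGAAA and the GAS as TTCNNNGAA, on both strands. The ISRE core stood in a window of 14 of the 31 genes (45.2%), against 3.99% of all 27025 genes of the promoter table, and the GAS in 8 (25.8%), against 9.55%. Because the genes were chosen by name for their part in the interferon response, higher shares come with the choice and are no finding of these arrays. Of the 10 genes with a window that fell with either hormone, 2 held the ISRE core and 4 the GAS, and of the 16 that passed in neither direction against vehicle, 10 held the ISRE core and 4 the GAS. A match describes letters only. The stretches below run 5′ to 3′ along the gene's strand, with the matched letters in capitals. The first 4 belong to genes that fell with FGF15, FGF19 or both, Psmb8 (chr17:34198078-34198126, plus strand), Irf1 (chr11:53769904-53769952, plus), Bst2 (chr8:71537567-71537622, minus) and B2m (chr2:122147528-122147577, plus). The last 4 belong to genes that did not pass against vehicle, Ifit3 (chr19:34583353-34583436, plus), Oas1a (chr5:120907526-120907565, minus), Igtp (chr11:58199502-58199551, plus) and Cxcl10 (chr5:92349073-92349122, minus).
Psmb8, GAS: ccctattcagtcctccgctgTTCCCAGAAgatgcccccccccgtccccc
Irf1, GAS: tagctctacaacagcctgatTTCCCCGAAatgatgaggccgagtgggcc
Bst2, ISRE core: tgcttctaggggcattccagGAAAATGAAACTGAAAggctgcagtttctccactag
B2m, ISRE core: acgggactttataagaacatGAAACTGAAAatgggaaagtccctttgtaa
Ifit3, ISRE core: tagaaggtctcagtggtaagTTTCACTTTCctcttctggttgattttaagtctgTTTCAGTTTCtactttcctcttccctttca
Oas1a, ISRE core: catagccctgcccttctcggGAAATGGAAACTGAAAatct
Igtp, ISRE core: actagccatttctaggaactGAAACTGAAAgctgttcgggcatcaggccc
Cxcl10, ISRE core: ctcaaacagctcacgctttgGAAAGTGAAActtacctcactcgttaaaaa
Bst2 holds overlapping copies of the ISRE core, and so does Oas1a. In Bst2 a GAS match also overlaps the upstream copy. The stretch of Igtp also holds a GAS match, left in lower case. The windows of Irf7, Irf9, Psmb9, Psmb10, Tapbp and Cxcl9 held neither motif. Sites that depart from the searched letters or lie outside the windows were not looked for, so no match does not mean no element.

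The arrays had been scaled to the same trimmed mean, and their median signals were 55.2 and 51.3 with FGF15, 50.8 and 52.2 with FGF19 and 61.4 and 59.4 with vehicle. FGF19 replicate 1 stood apart in control probe sets, with a 3′ to 5′ signal ratio of 1.63 for beta-actin, against 1.30 to 1.39 on the other arrays, and a ribosomal RNA control of 32.3, against 4.25 to 5.82. Cyp7a1, the bile acid enzyme that both hormones repress, fell by 4.44 on the log2 scale with FGF15 and by 5.31 with FGF19. All 6 measured hepatocyte markers passed the filter, and none differed from vehicle past the threshold. Their differences were below 0 for 6 with FGF15 and 5 with FGF19, with medians of -0.19 and -0.31.

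Most of the interferon and antigen processing genes that changed were lower after either hormone, and a few rose with FGF19. Of the 32 tested genes, 8 were called lower and 0 higher with FGF15, against 6.64% and 5.87% of all tested genes (12.5% in either direction). The FGF19 arrays gave 9 lower and 3 higher, against 7.26% and 6.27% (13.5% in either direction). Changes here are log2 differences on the log2(signal + 32) scale, which understates the change of dim genes, each with limma's standard error (SE, n = 2 arrays per group). Folds are taken from these differences and are not ratios of the printed signals. A gene is said to rise or fall at an adjusted p under 0.05. The median difference of the 32 genes was -0.26 with FGF15 and -0.27 with FGF19, against medians of -0.05 and -0.07 over all tested genes and the hepatocyte marker medians above, of which that with FGF19 lay further below 0. Both comparisons share the vehicle arrays, so these counts are not independent of each other. Because the genes were chosen with earlier results of these data known, an excess over all genes describes them and is no test.

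Scaling moved these counts. The shares of all genes called under other settings count both directions, and shares by direction are not given for them. With each array centred on its median, the median of all tested genes shifted to 0.07 in both comparisons, and the counts became 6 lower and 1 higher with FGF15 and 4 lower and 3 higher with FGF19, while the share of all genes called in either direction became 14.1% and 16.0%. Without FGF19 replicate 1, 5 genes fell with FGF19, where 7.92% of all genes passed in either direction against 13.5% with all arrays. Without vehicle replicate 1, the number that fell with FGF19 was 3, where 6.42% of all genes passed. Without vehicle replicate 2 it was 5 with either hormone, where 6.29% of all genes passed with FGF15 and 6.98% with FGF19. The number that rose with FGF19 was 1 without vehicle replicate 2 or either FGF19 array. The arrays of both groups were apart, treated below vehicle, for 22 of the 32 genes with FGF15 and 18 with FGF19, against 32.7% and 37.2% of all tested genes. They were apart with the treated arrays above vehicle for 2 genes with FGF15 and 4 with FGF19, against 22.2% and 21.4%.

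**Figure D1:**
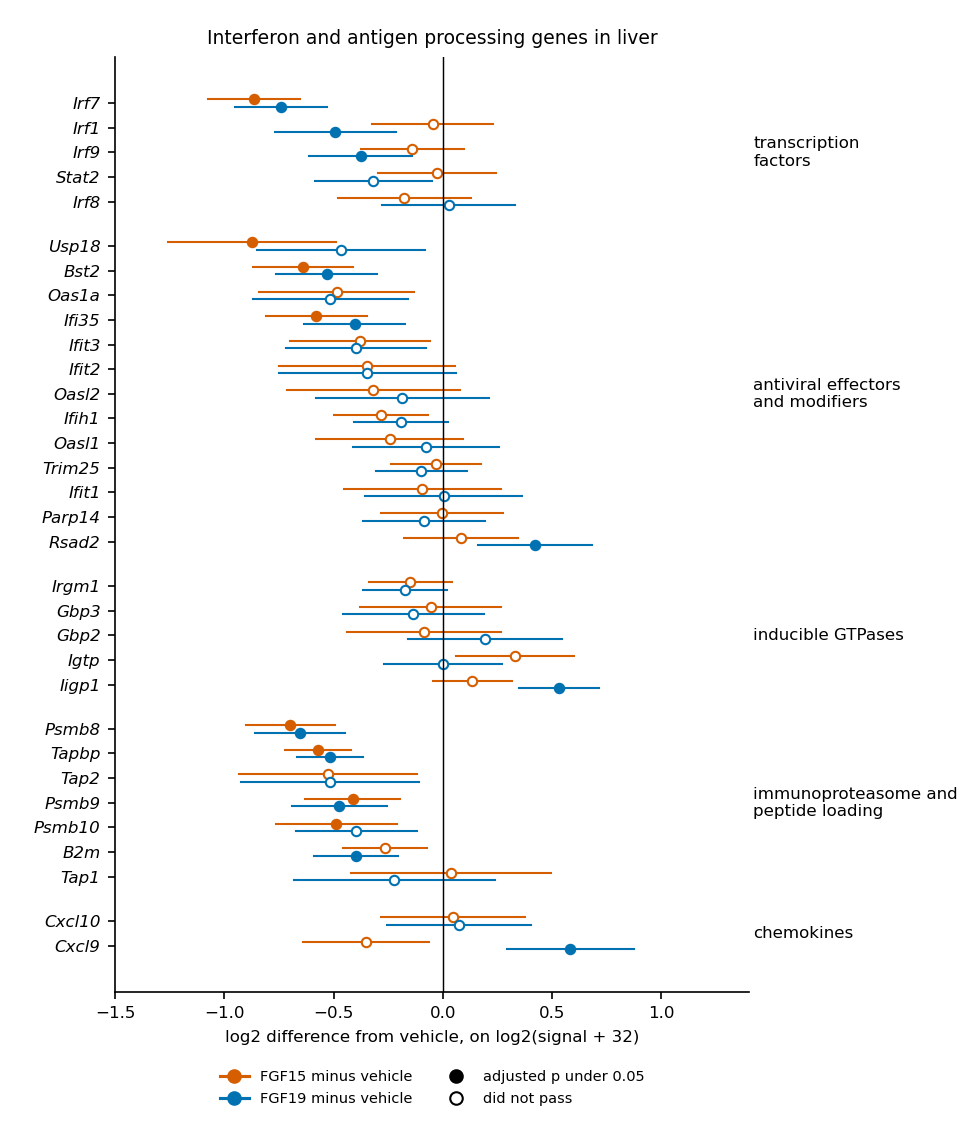
Log2 differences from vehicle of the 32 tested genes, grouped by role, for FGF15 (orange) and FGF19 (blue), with 95% confidence intervals from limma (n = 2 arrays per group). Filled points passed an adjusted p of 0.05. Filled points lie left of 0 for 8 genes with FGF15 and 9 with FGF19, and right of 0 only for Rsad2, Iigp1 and Cxcl9 with FGF19.

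Of the 5 transcription factors, 1 fell with FGF15 and 3 with FGF19, where 6.64% and 7.26% of all genes fell. These were Irf7 with both hormones and Irf1 and Irf9 with FGF19. IRF7 amplifies type I interferon production and is itself induced by interferon. Its signal was 174 and 157 with FGF15 and 185 and 179 with FGF19, against 342 and 312 with vehicle. Every treated array lay below both vehicle arrays, by 1.82-fold with FGF15 (-0.86 ± 0.09, adjusted p = 0.000285) and 1.67-fold with FGF19 (-0.74 ± 0.09, adjusted p = 0.000688). Both calls held in each of 17 alternative settings, at adjusted p up to 0.00566 and 0.0109. The difference between the hormones was 0.12 (95% interval -0.09 to 0.33).

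IRF1 is induced by interferon gamma through a GAS, and it drives immunoproteasome and peptide transport genes. Irf1 had signals of 304 and 260.0 with FGF15 and 171 and 229 with FGF19, against 284 and 299.8 with vehicle. The FGF15 arrays straddled the vehicle arrays, whereas both FGF19 arrays were the lowest of all (-0.05 ± 0.12, adjusted p = 0.856 with FGF15, and -0.49 ± 0.12, adjusted p = 0.0283 with FGF19). FGF19 replicate 1 was the lower of the pair, and the call ended without it (-0.31, adjusted p = 0.175), without either vehicle array (0.0950 and 0.127) with centring on array medians (0.0699) and without the filter (0.0619). FGF19 minus FGF15 was -0.45 ± 0.12, which did not pass (adjusted p = 0.0821, but 0.0302 without FGF19 replicate 2).

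IRF9 gives the type I complex its DNA binding. Irf9 read 217 and 181 with FGF15, 156 and 170.2 with FGF19 and 218 and 225 with vehicle. Both hormones' arrays lay below vehicle, and the difference passed with FGF19 (-0.38 ± 0.11, adjusted p = 0.0416) and not with FGF15 (-0.14 ± 0.11, adjusted p = 0.446). The FGF19 call ended without any one vehicle or FGF19 array (adjusted p 0.0927 to 0.200) with quantile, loess or median scaling (0.0638 to 0.174) and without the filter (0.0699). Stat2, whose protein is the complex's activating part, had 237 and 246 with FGF15, 165 and 222 with FGF19 and 237 and 256 with vehicle. FGF19 replicate 1 was again the lowest array, and neither difference passed (-0.03 ± 0.12 and -0.32 ± 0.12, adjusted p = 0.915 and 0.115, but 0.0298 with FGF19 when FGF19 replicate 2 was left out). The other probe set of Stat2 gave -0.03 and -0.25. Irf8, a factor of macrophages and dendritic cells, differed by -0.18 ± 0.14 with FGF15 and 0.03 ± 0.14 with FGF19 and passed in neither. Its other probe set, at signals of 10.1 to 56.9, gave -0.47 and 0.21.

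The 13 tested antiviral effectors and modifiers held 3 calls with FGF15, all lower, and 3 with FGF19, of which 2 were lower and 1 higher. Of all genes, 6.64% and 7.26% were lower and 5.87% and 6.27% higher (12.5% and 13.5% in either direction). Bst2, or tetherin, holds budding virus on the cell surface. It had signals of 643 and 721 with FGF15 and 655 and 827 with FGF19, against 1093 and 1064 with vehicle. The falls were 1.56-fold (-0.64 ± 0.10, adjusted p = 0.00291) and 1.45-fold (-0.53 ± 0.10, adjusted p = 0.00753). The FGF15 call held in all 17 alternatives, and the FGF19 call ended without vehicle replicate 1 (adjusted p = 0.0595).

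Usp18 strips ISG15 from proteins and damps signalling by the type I receptor. Its signal was 76.3 and 44.2 with FGF15 and 98.4 and 79.5 with FGF19, against 131 and 138 with vehicle. FGF15 gave the lower levels, and the FGF19 arrays lay between the FGF15 and vehicle arrays. The fall passed with FGF15 (-0.87 ± 0.17, adjusted p = 0.00893, but 0.0586 without vehicle replicate 2). With FGF19 the difference was -0.47 ± 0.17 (adjusted p = 0.108, but 0.0373 to 0.0448 when only the arrays compared were fitted or an FGF15 array was left out), and FGF19 minus FGF15 was 0.41 (95% interval 0.03 to 0.79, adjusted p = 0.267).

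Ifi35, which encodes an interferon-induced leucine zipper protein, read 127.5 and 132 with FGF15 and 148 and 153 with FGF19, against 195 and 224 with vehicle. The groups did not overlap, and the falls were -0.58 ± 0.10 (adjusted p = 0.00536) and -0.40 ± 0.10 (adjusted p = 0.0294). Leaving out vehicle replicate 2 ended the FGF15 call (0.0546), and leaving out any one vehicle or FGF19 array ended the FGF19 call (0.0529 to 0.169), as did quantile, loess or median scaling (0.0547 to 0.155). Rsad2, or viperin, which blocks viral RNA synthesis, was the riser. It read 96.6 and 110.0 with FGF15 and 134 and 143 with FGF19, against 100.1 and 90.9 with vehicle. Its rise with FGF19 (0.42 ± 0.12, adjusted p = 0.0406) ended without any one vehicle or FGF19 array (0.0993 to 0.183) and with the mean of its probe sets (0.0783), and its other probe sets gave 0.26 and 0.18.

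**Figure D2:**
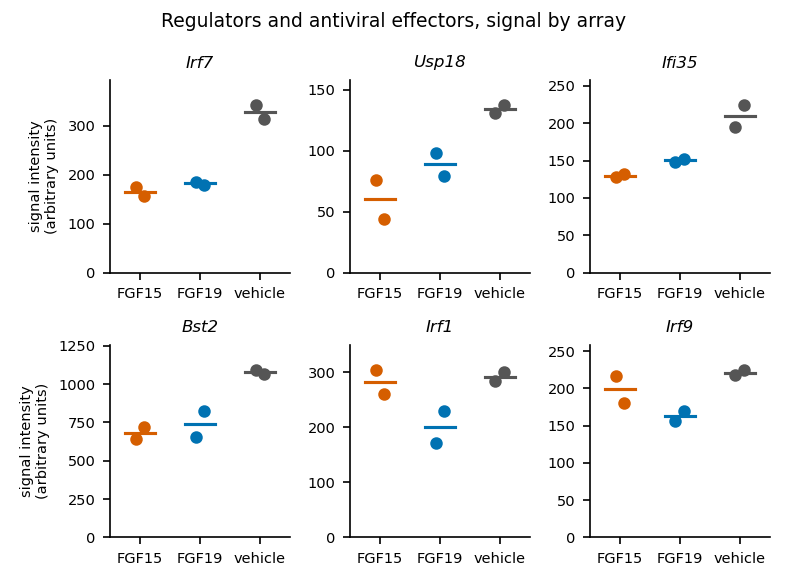
Signal intensity on each array (points) and group mean (horizontal lines) for Irf7, Usp18, Ifi35, Bst2, Irf1 and Irf9, with FGF15, FGF19 and vehicle from left to right and 2 arrays per group. For Irf7, Usp18, Ifi35 and Bst2 all treated arrays lie below both vehicle arrays, and for Irf1 only the FGF19 arrays do.

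Oas1a, Oasl1, Oasl2, Ifit1, Ifit2 and Ifit3 passed in neither comparison. Oas1a, an oligoadenylate synthetase that senses double-stranded RNA, read 63.3 and 60.4 with FGF15 and 51.0 and 69.9 with FGF19, against 114 and 86.4 with vehicle. Its arrays were apart, with differences of -0.49 ± 0.16 (adjusted p = 0.0769) and -0.52 ± 0.16 (adjusted p = 0.0593, but 0.0419 with the filter at the 50th percentile and 0.0472 with the mean of its probe sets). Ifit3, of a family that binds viral RNA, read 83.7 and 79.3 with FGF15 and 77.7 and 82.4 with FGF19, against 135 and 98.4 with vehicle, at -0.38 and -0.40 (adjusted p = 0.122 and 0.0990). Its relatives Ifit2 and Ifit1 gave -0.35 and -0.09 with FGF15 and -0.35 and 0.00 with FGF19. The promoter of Ifit3 shown above holds the ISRE core at separate places.

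Ifih1, which encodes the RNA sensor MDA5, differed by -0.28 ± 0.10 and -0.19 ± 0.10 (adjusted p = 0.0882 and 0.229). Oasl1 and Oasl2 lay at -0.24 and -0.32 with FGF15 and at -0.08 and -0.19 with FGF19. The ubiquitin ligase gene Trim25 (-0.03 and -0.10) and the ADP-ribosyltransferase gene Parp14 (0.00 and -0.09) had overlapping arrays in both comparisons on their highest probe sets, with 95% intervals that lie between -0.37 and 0.27. Other probe sets of Trim25 ranged from -0.31 to 0.16, and none passed. Mx1 and Mx2, whose products are inactive in most laboratory mouse strains, C57BL/6 among them, had signals of 3.92 to 24.1 on all arrays, at or near the level of the filter (14.0), and were given no test.

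Antigen processing was the group with the most falls. Of 7 genes, 4 fell with FGF15 and 4 with FGF19, 0 rose with either, and their medians were -0.49 and -0.47, where 6.64% and 7.26% of all genes fell and the medians of all genes were -0.05 and -0.07. The immunoproteasome replaces the cutting subunits of the constitutive proteasome with PSMB8, PSMB9 and PSMB10 and so favours peptides that fit MHC class I. Psmb8 had signals of 171 and 157 with FGF15 and 172 and 168 with FGF19, against 292 and 279 with vehicle. All treated arrays stood well below vehicle, 1.62-fold with FGF15 (-0.70 ± 0.09, adjusted p = 0.000898) and 1.57-fold with FGF19 (-0.65 ± 0.09, adjusted p = 0.00125). Both calls held in all 17 alternatives, and the hormones differed by 0.04 (95% interval -0.16 to 0.25).

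Psmb9 read 139.5 and 139.6 with FGF15 and 129 and 136 with FGF19, against 195 and 198 with vehicle, so the groups were apart and the arrays of a group close. It fell by 0.41 ± 0.10 with FGF15 (adjusted p = 0.0218) and by 0.47 ± 0.10 with FGF19 (adjusted p = 0.0104). The FGF15 call ended when any one array of vehicle or FGF15 was left out (0.0665 to 0.106), the FGF19 call without either vehicle array or FGF19 replicate 1 (0.0606 to 0.0729), and both with centring on medians (0.0902 and 0.0577), where the differences were -0.30 and -0.33. Psmb10 had 217 and 169 with FGF15 and 227 and 187 with FGF19, against 272 and 292 with vehicle. It fell with FGF15 (-0.49 ± 0.12, adjusted p = 0.0294, but 0.0938, 0.148 and 0.164 without vehicle replicate 1, vehicle replicate 2 and FGF15 replicate 2, 0.0617 with centring and 0.0631 without the filter) and did not pass with FGF19 (-0.40 ± 0.12, adjusted p = 0.0630, but 0.0341 to 0.0462 when only the arrays compared were fitted, with the replicate block or without an FGF15 array).

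The constitutive subunits that these replace, named here for that role outside the rule for named genes, did not pass in either comparison. Psmb5, the counterpart of Psmb8, read 1264 and 1126 with FGF15 and 1319 and 1146 with FGF19, against 1216 and 1165 with vehicle. It differed from vehicle by 0.00 ± 0.08 with FGF15 and 0.05 ± 0.08 with FGF19. Psmb6, the counterpart of Psmb9, differed by -0.06 ± 0.09 and 0.10 ± 0.09, and Psmb7, of Psmb10, by 0.01 ± 0.07 and 0.06 ± 0.07. The adjusted p-values were 0.490 to 0.987. Of 20 constitutive subunits, 1 was called lower with each hormone, against 6.64% and 7.26% of all genes, and 1 higher with FGF19, against 6.27%. These counts are near the background. When arrays were centred on their medians, 8 differed from vehicle with either hormone, where 14.1% and 16.0% of all genes were called. Psmc4 was the gene that fell (-0.73 ± 0.16 and -0.64 ± 0.16), on vehicle signals of 1167 and 745 that were themselves far apart. Both its calls ended without vehicle replicate 1 or any treated array compared. Psmb3 rose with FGF19 (0.44 ± 0.08, adjusted p = 0.00466). With FGF15 it differed by 0.27, which passed with centring, a stricter filter, only the arrays compared or the replicate block (adjusted p = 0.0129 to 0.0440).

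**Figure D3:**
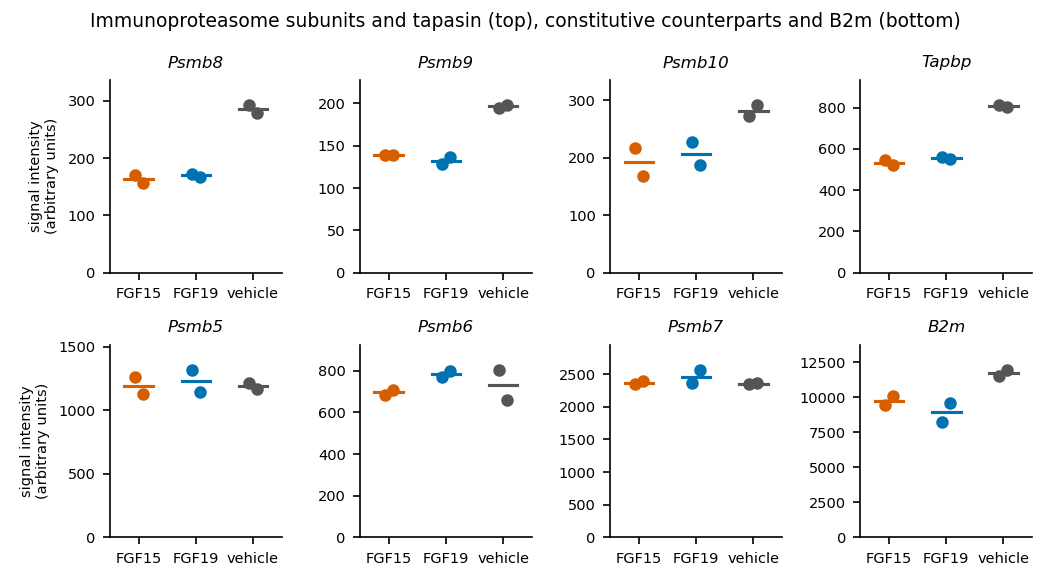
Signal intensity on each array (points) and group mean (horizontal lines) with FGF15, FGF19 and vehicle from left to right, 2 arrays per group, for Psmb8, Psmb9, Psmb10 and Tapbp (top) and for Psmb5, Psmb6, Psmb7 and B2m (bottom). The treated arrays lie below both vehicle arrays in the top row and for B2m, and overlap the vehicle arrays for the 3 constitutive subunits.

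Peptides from the proteasome cross into the endoplasmic reticulum through TAP1 and TAP2, and tapasin (Tapbp) bridges this transporter to MHC class I, whose light chain is beta-2 microglobulin (B2m). Tapbp had signals of 548 and 520.0 with FGF15 and 564 and 549.9 with FGF19, against 813 and 806 with vehicle. It fell 1.49-fold (-0.57 ± 0.07, adjusted p = 0.000471) and 1.43-fold (-0.52 ± 0.07, adjusted p = 0.000842), and both calls held in all 17 alternatives. Its other probe set moved less, at -0.14 and -0.25, and did not pass (adjusted p = 0.407 and 0.132). B2m read 9428 and 10072 with FGF15 and 8248 and 9601 with FGF19, against 11516 and 11951 with vehicle. Its fall passed with FGF19 (-0.40 ± 0.09, adjusted p = 0.0134) and not with FGF15 (-0.27 ± 0.09, adjusted p = 0.0745, but 0.00533 to 0.0344 with cyclic loess, with only the arrays compared, with the replicate block or without an FGF19 array). Its other probe set gave -0.28 with FGF15 (adjusted p = 0.105) and -0.36 with FGF19 (adjusted p = 0.0428). Quantile normalization reduced the FGF19 difference to -0.07 (adjusted p = 0.414), and the call also ended with median scaling (0.117) and without either vehicle array (0.0863 and 0.114).

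Tap1 and Psmb9 lie head to head, and RefSeq places only 225 bases between their starts (chr17:34187331-34187555 on GRCm38.p6, shown along the plus strand, which is the strand of Tap1). The stretch is printed because a single spacer separates a gene that fell from one that did not pass, and it held neither motif.
Psmb9-Tap1 spacer: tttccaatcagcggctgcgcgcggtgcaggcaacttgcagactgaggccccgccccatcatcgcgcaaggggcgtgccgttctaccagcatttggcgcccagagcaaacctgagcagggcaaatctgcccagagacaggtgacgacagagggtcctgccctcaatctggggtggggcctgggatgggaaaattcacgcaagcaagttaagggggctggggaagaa
Tap1 had signals of 80.5 and 98.6 with FGF15 and 67.4 and 71.2 with FGF19, against 118 and 60.7 with vehicle. The vehicle arrays lay on either side of all treated arrays, and the differences of 0.04 ± 0.21 and -0.22 ± 0.21 have 95% intervals of -0.42 to 0.50 and -0.68 to 0.24, wide enough to hold a fall like that of Psmb9. Its other probe set above the filter gave 0.04 and -0.39 (adjusted p = 0.926 and 0.244), with both FGF19 arrays below vehicle. Tap2 read 52.3 and 62.9 with FGF15 and 64.5 and 51.6 with FGF19, against 122 and 75.7 with vehicle. Its arrays were apart but the vehicle pair was uneven, and neither difference passed (-0.52 ± 0.18 in both comparisons, adjusted p = 0.0953 and 0.0937, but 0.0372 and 0.0363 without vehicle replicate 2).

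Of 10 other tested genes of MHC class I and its loading, 1 fell and 1 rose with FGF15 and 2 fell with FGF19, counts near the background of 12.5% and 13.5% of all genes. H2-D1, a class I heavy chain, fell by 0.32 ± 0.07 and 0.41 ± 0.07 (adjusted p = 0.0147 and 0.00358), and H2-Q10, a secreted class I chain made by the liver, differed by -0.27 ± 0.08 with FGF15 (adjusted p = 0.0612, but 0.00627 to 0.0373 in 6 alternatives) and fell with FGF19 (-0.33 ± 0.08, adjusted p = 0.0273). With centring on medians these 3 calls ended (adjusted p = 0.0512 to 0.248), and those of H2-D1 with FGF15 and of H2-Q10 also ended without single arrays. Pdia3, a chaperone of the loading complex, rose with FGF15 (0.29 ± 0.07, adjusted p = 0.0222, lost without either vehicle array or FGF15 replicate 2). Among 7 genes of MHC class II, 3 fell with FGF15 and 2 with FGF19, against 6.64% and 7.26% of all genes. Cd74, the invariant chain, read 392 and 431 with FGF15 and 476 and 467 with FGF19, against 671 and 661 with vehicle (-0.66 ± 0.07 and -0.47 ± 0.07, adjusted p = 0.000332 and 0.00237). Ctss, the protease that trims it, fell by 0.73 ± 0.10 and 0.80 ± 0.10. The calls of Cd74 and Ctss held in all 17 alternatives. H2-Eb1, a class II beta chain, fell with FGF15 (-0.35 ± 0.08, adjusted p = 0.0246, but up to 0.137 with centring or without single vehicle or FGF15 arrays), and its FGF19 minus FGF15 difference did not pass (0.15, adjusted p = 0.434).

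The inducible GTPases attack the vacuoles of intracellular parasites. Of 5, 0 passed with FGF15 and 1 rose with FGF19, and with 12.5% and 13.5% of all genes called these counts are near the background. Iigp1, a member of this group that coats such vacuoles, had signals of 4030.5 and 3992 with FGF15 and 4872 and 5749.5 with FGF19, against 3685 and 3614 with vehicle. Both FGF19 arrays were above all others, and the FGF15 arrays lay narrowly above vehicle. The rise with FGF19 was 1.45-fold (0.53 ± 0.08, adjusted p = 0.0021) and held in all 17 alternatives, while FGF15 differed from vehicle by 0.14 ± 0.08 (adjusted p = 0.335).

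A separate probe set of Iigp1 gave a larger rise, with 1603 and 1799 in FGF15 livers and 2653 and 2774 in FGF19 livers, against 1384 and 1485 with vehicle (0.24 and 0.91, adjusted p = 0.0814 and 7.82e-05 over all probe sets). FGF19 minus FGF15 passed on both probe sets, at 0.40 ± 0.08 (adjusted p = 0.0231) and 0.67 (adjusted p = 0.00117). With the probe set that represents the gene, the FGF19 minus FGF15 call ended when any one array of vehicle or FGF15 was left out. That call also ended without the filter (adjusted p = 0.0683) and when only the arrays compared were fitted (0.0623).

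Igtp read 407 and 313.5 with FGF15 and 303 and 256 with FGF19, against 270.0 and 286 with vehicle. It was above vehicle on both FGF15 arrays (0.33 ± 0.12, adjusted p = 0.115), which passed with centring on medians (0.0240) or without FGF15 replicate 2 (0.0354). Irgm1, a regulator of these GTPases, gave -0.15 ± 0.09 and -0.17 ± 0.09, Gbp2 -0.09 ± 0.16 and 0.19 ± 0.16, and Gbp3 -0.06 ± 0.14 and -0.14 ± 0.14. None of them passed. A second probe set of Gbp2 differed in direction with FGF19, at -0.46 with FGF15 and -0.19 with FGF19.

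Cxcl9 set the hormones apart. It encodes a chemokine that draws T cells and is induced chiefly by interferon gamma. The signal was 62.2 and 81.0 with FGF15 and 166 and 165 with FGF19, against 106.5 and 93.1 with vehicle. The FGF15 arrays were the lowest, the FGF19 arrays the highest, and no groups overlapped. It rose with FGF19 against vehicle (0.58 ± 0.13, adjusted p = 0.0151, but 0.0906, 0.0897 and 0.0799 without vehicle replicate 2, FGF19 replicate 1 and FGF19 replicate 2), and FGF15 differed by -0.35 ± 0.13 (adjusted p = 0.114). FGF19 minus FGF15 was 0.94 ± 0.13, a 1.91-fold difference (adjusted p = 0.00258), which held in all 17 alternatives at adjusted p up to 0.0334.

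Cxcl10, a chemokine for the same receptor, read 48.7 and 46.2 with FGF15 and 45.3 and 52.9 with FGF19, against 42.7 and 47.2 with vehicle. The groups overlapped (0.05 ± 0.15 and 0.07 ± 0.15), and its promoter shown above holds the ISRE core. Cxcl9 and Iigp1 were the only 2 of the 32 genes to pass between the hormones, both higher with FGF19, against 2.4% of all tested genes that were higher, 1.89% that were lower and 4.29% in either direction. Arrays of the hormones were apart with FGF19 above for 10 of the 32 genes and below for 6, against 20.1% and 25.8%. The median FGF19 minus FGF15 difference of the 32 genes was 0.04, and that of all tested genes -0.02.

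**Figure D4:**
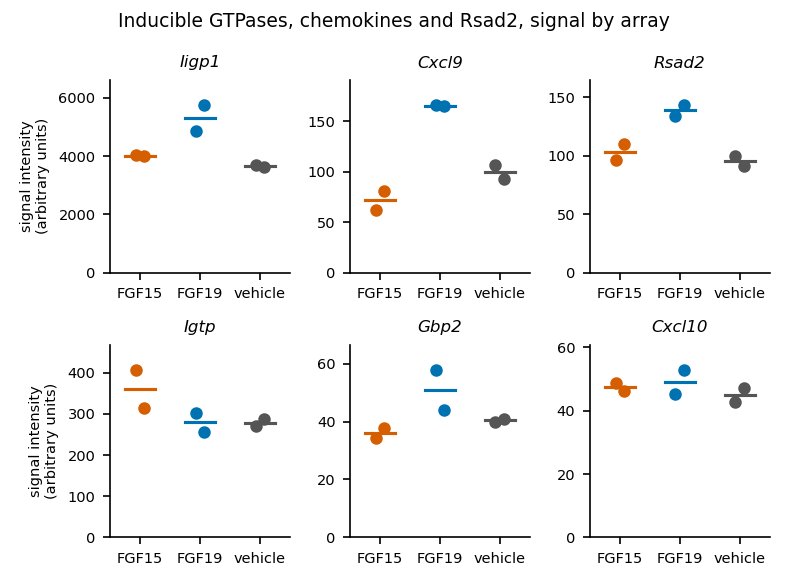
Signal intensity on each array (points) and group mean (horizontal lines) with FGF15, FGF19 and vehicle from left to right, 2 arrays per group, for Iigp1, Cxcl9, Rsad2, Igtp, Gbp2 and Cxcl10. The FGF19 arrays are the highest for Iigp1, Cxcl9, Rsad2 and Gbp2, of which the first 3 passed against vehicle, and the groups of Cxcl10 overlap.

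The list of interferon ligands, receptors and signal transduction had 17 tested genes, of which 1 was called lower and 1 higher with FGF15, and 2 lower and 1 higher with FGF19. These counts are near the background of 12.5% and 13.5% of all genes called. The riser was Socs3, an inhibitor of JAK kinases that cytokines induce, with signals of 789.6 and 921 with FGF15 and 908 and 775 with FGF19, against 572 and 511 with vehicle (0.63 ± 0.10 and 0.61 ± 0.10, adjusted p = 0.00279 and 0.00324, both held in all 17 alternatives). Its probe set ends in _x_at and can bind related transcripts. The genes that fell were Il10rb, a receptor chain shared with interferon lambda (-0.53 ± 0.13 with FGF15), and Ifngr2 and Irf5 (-0.67 and -0.64 with FGF19). With the other hormone Il10rb differed by -0.35 (adjusted p = 0.115), Ifngr2 by -0.54 (0.0626) and Irf5 by -0.48 (0.0534). Each of the 3 calls ended without at least 1 of the arrays compared.

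The receptor and kinase genes Ifnar1, Ifnar2, Ifngr1, Jak1, Jak2 and Tyk2, named for their role, did not pass in either comparison. Ifngr1 lay below vehicle on all treated arrays, by -0.61 ± 0.20 with FGF15 and -0.37 ± 0.20 with FGF19 (adjusted p = 0.0835 and 0.275). Jak2 did so too, by -0.24 ± 0.16 and -0.38 ± 0.16 (adjusted p = 0.364 and 0.148). The differences of the others lay between -0.21 and 0.09. Of the interferon genes themselves, Ifng and Ifna4 lay under the filter, at 1.00 to 9.01 on all arrays, and Ifnb1 read 10.3 to 22.0. Ifna2 read 101 and 66.8 with FGF15 and 57.8 and 63.9 with FGF19, against 27.1 and 65.7 with vehicle, so the arrays were uneven, and neither it (adjusted p = 0.137 and 0.460) nor Ifna1 (0.215 and 0.631) passed. Among 10 genes of nucleic acid sensing, 1 fell and 2 rose with FGF15, where 12.5% of all genes were called in either direction. With FGF19, 0 fell and 1 rose, a count near the background of 13.5%. Myd88, an adaptor of Toll-like receptors, rose with both hormones (0.58 ± 0.10 and 0.45 ± 0.10, adjusted p = 0.0042 and 0.0135). Its FGF19 call ended without vehicle replicate 1 or either FGF19 array. Mavs, the adaptor of RNA sensors, rose with FGF15 (0.41 ± 0.08, adjusted p = 0.00969, lost when vehicle replicate 1 or FGF15 replicate 2 was left out), and Sting1, the adaptor of DNA sensing, fell with FGF15 (-0.64, adjusted p = 0.0289, but 0.188 and 0.145 without vehicle replicate 1 and FGF15 replicate 2).

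In a wider list of 34 tested interferon-stimulated genes, the calls were 4 lower and 1 higher with FGF15 and 7 lower and 0 higher with FGF19, with medians of -0.25 and -0.26. Of all genes, 6.64% and 7.26% were lower and 5.87% and 6.27% higher (12.5% and 13.5% in either direction), and the medians were -0.05 and -0.07. Taken in either direction, the FGF15 count is near the background. The riser was Parp9, an ADP-ribosyltransferase family gene named after its values were seen, as the 1 gene of that count (0.30 ± 0.08 with FGF15, adjusted p = 0.0324, but 0.0501 to 0.177 without any one vehicle or FGF15 array). Ifi27l2a, a mitochondrial protein gene, fell most clearly, with signals of 49.2 and 60.3 with FGF15 and 55.03 and 65.5 with FGF19, against 149 and 141 with vehicle (-1.03 ± 0.13 and -0.94 ± 0.13, held in all 17 alternatives). Ifitm3, which bars virus entry, fell by 0.43 ± 0.10 and 0.53 ± 0.10, and Lgals3bp, a secreted glycoprotein gene, by 0.43 ± 0.09 and 0.32 ± 0.09, and each of these 4 calls ended without 1 or more vehicle or treated arrays. Oas3 fell with FGF19 (-0.94 ± 0.17) at signals of 7.42 and 4.16, under the level of the filter, against 38.9 and 41.7 with vehicle. Trim34a, of the tripartite motif family, fell with FGF19 (-0.58 ± 0.13, adjusted p = 0.0159, but up to 0.158 with the mean of its probe sets or without vehicle replicate 1 or either FGF19 array). Ifi47, another GTPase gene, and Ifitm1 differed between the hormones in opposite directions (-0.65 ± 0.12 and 0.50 ± 0.11, FGF19 minus FGF15), and both calls ended without FGF15 replicate 2 or either FGF19 array.

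Markers of other cells moved beside these genes. The macrophage list, Kupffer cells included, had 12 measured markers, none under the filter, of which 10 were called lower with each hormone, against 6.64% and 7.26% of all genes. Their summed signal was 3749.7 to 3797 on the FGF15 arrays and 3472 to 3531 on the FGF19 arrays, against 6393 to 6464 with vehicle. In whole tissue, fewer cells of a type and less RNA per cell cannot be told apart. Clec4f, a marker of Kupffer cells, differed by -0.78 and -0.995, and Csf1r, the macrophage growth factor receptor, by -0.69 and -0.82, and all 4 calls held in 17 alternatives. Marco, a scavenger receptor of the same list, fell with FGF15 (-0.71, a call lost without vehicle replicate 2 or FGF15 replicate 1) and was higher with FGF19 than with FGF15 (1.01 ± 0.15, adjusted p = 0.00423, but 0.0601 without FGF19 replicate 1). The part of these cells in the falls of Irf7, Bst2, Usp18, Psmb8, Tapbp, Cd74 and Ctss was not tested.

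The 5 measured neutrophil markers summed to 299 to 316 with FGF15 and 465 to 499 with FGF19, against 579.9 to 595 with vehicle. S100a9 was higher with FGF19 than with FGF15 (0.93 ± 0.10, adjusted p = 0.000707), as Cxcl9 and Iigp1 were. The 5 markers did not move as one. Between the hormones 3 lay above 0 and 2 below, down to -0.38, and 2 were called higher, against 2.4% of all genes. With FGF15, 3 were called lower than vehicle, against 6.64% of all genes, and 2 lay above 0. The 10 sinusoidal endothelial markers summed to 1866 to 1913 with FGF15 and 1929 to 1959 with FGF19, against 2139.7 to 2165 with vehicle. Of 10 measured markers of T cells and NK cells, Cd3d, Cd4 and Gzmb were under the filter. The sum was 101 to 149.6 with FGF15 and 161 to 204 with FGF19, against 142 to 212 with vehicle, so FGF19 and vehicle overlapped. Ccl5 rose with FGF19 (0.72 ± 0.20, adjusted p = 0.0433), at signals of 45.1 and 43.7 against 23.03 and 7.31 with vehicle, and that call ended without vehicle replicate 2 or either FGF19 array. Markers of B and plasma cells summed to 60.1 to 85.4 with FGF15 and 74.3 to 85.9 with FGF19, against 119.7 to 155 with vehicle, with Cd79a and Pax5 under the filter. Jchain, of plasma cells, fell with both hormones (-0.68 and -0.60), and both calls ended without any one array compared. Dendritic cell markers summed to 70.6 to 83.3 with FGF15 and 83.1 to 112 with FGF19, against 100.4 to 129.8 with vehicle, with Xcr1, Ccr7 and Cd209a under the filter. The sums for stellate cells were 2121 to 2216 with FGF15 and 2152 to 2317 with FGF19, against 2520.2 to 2607 with vehicle, and those for cholangiocytes overlapped. The 6 hepatocyte markers summed to 53877 to 58576 with FGF15, 44432 to 58714 with FGF19 and 62944 to 63625 with vehicle, with FGF19 replicate 1 the lowest. The part of any of these cells in the rise of Cxcl9 and Iigp1 was not tested.

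**Figure D5:**
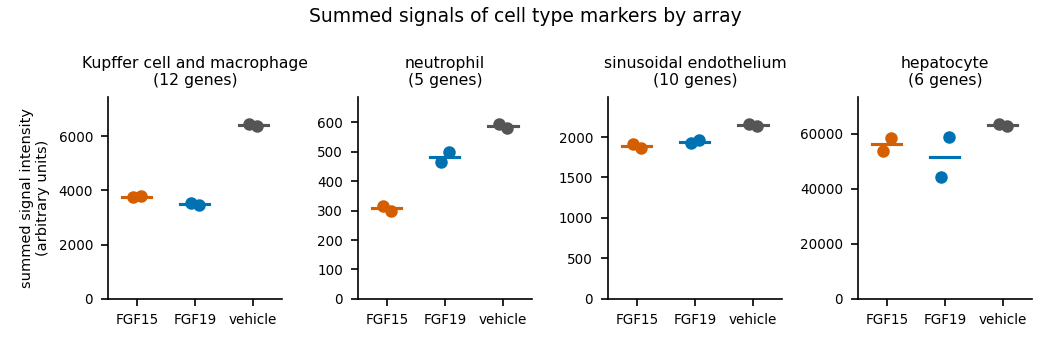
Summed signal intensity of the measured markers of 4 cell types on each array (points) with group means (horizontal lines), with FGF15, FGF19 and vehicle from left to right and 2 arrays per group. The macrophage sum lies at 3472 to 3797 on the treated arrays and at 6393 to 6464 with vehicle, a wider gap than the other sums show in proportion, apart from the neutrophil sum with FGF15.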

How the data were processed

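Per the labels, total liver RNA was hybridised to 1-colour Affymetrix arrays, and the deposited values are signal intensities on a linear scale, 1 per probe set and array. The values show that the authors scaled each array to a trimmed mean of about 200.1 (2% off each end). The sources used here name no summary software. Signals were taken as log2(signal + 32) without further scaling. A gene was represented by its probe set of highest mean log2 value, symbols were updated through Entrez identifiers, and genes under the 25th percentile over all probe sets (a signal of about 14.0) were left out. Differences came from limma 3.58.1 in R 4.3.3 (lmFit, eBayes with an intensity trend) in 1 model of 6 arrays with 3 residual degrees of freedom, with two-sided tests and Benjamini-Hochberg adjustment over the 9692 genes. Other probe sets were tested in a fit over all probe sets above that level. The steps were tested on simulated data. Precision is limited by the few arrays, with a median standard error of 0.13 over genes for FGF15 minus vehicle.

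All 37 genes were named, with up to 5 called genes of each other list against vehicle and up to 5 between the hormones, by p, and up to 3 called markers of a cell type; exceptions are declared where they are named. The members and lists were chosen with earlier results of these data known. Alternatives were other pseudocounts, quantile, cyclic loess and median scaling, other filters, other uses of probe sets, a fit of only the arrays compared, a block for replicate number and leaving out each array. Promoters are from RefSeq (GRCm38.p6). Plots used matplotlib 3.10.9 (Python 3.11.15).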

Additional observations from a re-analysis of the deposited data

Results flagged for a closer look

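These genes differed between FGF19 and FGF15 in the fit across all genes, so that the hormones' effects against the same vehicle arrays were unequal. Of the interferon and antigen processing genes, Cxcl9 was higher with FGF19 by 0.94 and Iigp1 by 0.40 on the log2 scale. In the wider interferon lists, Ifitm1 was higher with FGF19 by 0.50, and Ifi47 differed by -0.65. Among cell markers, Marco (1.01), S100a9 (0.93), S100a8 (0.56) and Lyve1 (0.40) were higher with FGF19, and Lrat differed by -0.65. Of these 9 calls, those of Cxcl9 and S100a9 held in all 17 alternatives, and each of the others ended in at least 1 of them.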

How the results depend on the processing

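With 2 arrays per group, calls near the threshold depended on single arrays. In the main fit 8 members were called with FGF15, 12 with FGF19 and 2 between the hormones. Only these calls could be lost, each in up to 17 alternatives, some of which left 1 array in a group. Over the alternatives 56 calls were lost, 20 were gained and 0 changed sign. The 1620 recomputed differences of single members also cover those without a call, of which 76 moved by at least 1 standard error. Leaving out 1 array gave 5 to 9 genes lower and 0 to 1 higher with FGF15 than with vehicle, 3 to 11 lower and 1 to 3 higher with FGF19 than with vehicle, and 0 to 1 lower and 1 to 2 higher with FGF19 than with FGF15. In the same fits the share of all genes called in either direction was 5.73% to 12.4% with FGF15, against 12.5% with all arrays. The share was 6.42% to 14% with FGF19, against 13.5%, and 2.41% to 3.51% between the hormones, against 4.29%. Changes in these counts alone therefore do not set the genes apart from all genes. Leaving out 1 array gave medians of -0.26 to -0.21 with FGF15 and -0.27 to -0.21 with FGF19. Centring on array medians gave 1 higher with FGF15 and 4 lower with FGF19, where 14.1% and 16.0% of all genes were called in either direction. It gave medians of -0.14 and -0.12, while the gap to the median of all genes stayed at that of the uncentred values by construction. The FGF15 and FGF19 medians were -0.14 and -0.17 with quantile normalization, -0.18 and -0.20 with cyclic loess, -0.20 and -0.20 with a pseudocount of 64 and -0.21 and -0.21 without a filter. The FGF19 median was -0.31 with a pseudocount of 8 and -0.35 with the filter at the 50th percentile. Between the hormones 1 gene was higher without a filter or with only the arrays compared, where 2.5% and 3.34% of all genes were called in either direction. Genes that differed from vehicle with either hormone numbered 1 without a filter for the constitutive proteasome (2 otherwise, 8 with centring, 1 to 3 with an array left out), 2 for signal transduction (4 otherwise, 2 to 6), and 5 for MHC class I with quantile or cyclic loess normalization (3 otherwise, 1 to 4). The counts for nucleic acid sensing (3 in the main fit) and the wider list (9) changed too when an array was left out. Same-numbered arrays showed no strong shared deviation, with correlations across genes of 0.05, 0.08 and -0.02. These values cannot tell whether arrays of equal number were paired in the experiment. With the replicate number as a block, 9 genes fell with FGF15 and 10 with FGF19, B2m and Psmb10 being the genes added. In that fit 12.9% and 14.2% of all genes were called in either direction. Signals near the filter limit what dim genes such as Mx1, Mx2 and Ifit2 can show.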
